A study of Mus musculus with 2 samples.

Results

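The set examined here holds 36 genes that cells are known to use when oxygen is short: 12 glycolytic enzymes and 24 further genes of the hypoxia response. They are listed by name and no measured value enters the rule, but the list was chosen with earlier results of these data known. All 36 were found among the 32285 genes counted, each with at least 1 UMI (a transcript molecule counted once by its barcode). Single-cell RNA was sequenced from Lewis lung carcinoma (LLC) tumors, which grow from a mouse lung cancer cell line inoculated under the skin of C57BL/6 mice. The host mice were Gucy1b1 flox/flox (sGC Ctr) or Cspg4-CreERT2::Gucy1b1 flox/flox (sGC ∆PC, whose label spells the gene Gucyc1b1), so both carried the floxed allele of Gucy1b1, which encodes the beta subunit of soluble guanylate cyclase, the nitric oxide receptor. Tamoxifen was given to both groups in 5 doses when the mice were 4 weeks old, inoculation followed at 8 weeks, and tumors were taken 2 weeks later. The Cre recombinase is driven by the Cspg4 promoter, which is active in pericytes, the mural cells of capillaries, but is not restricted to them, and the cancer cells come from the inoculated line and carry no Cre.

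Each condition is 1 library of cells pooled from 3 tumors. Differences between tumors therefore cannot be seen, the condition and the library cannot be told apart, and no test, p-value or standard error is given. Every interval in parentheses is a 95% interval for counting error only. The sGC Ctr library held 15007 barcodes and 487859656 UMIs, and the sGC ∆PC library held 25631 barcodes and 436352742 UMIs. After quality control 12220 and 22498 cells remained, in which the median cell had 35776.5 and 8685 UMIs, and 131 barcode strings occurred in both libraries. Cells were gated by lists of marker genes into 9 classes that were compared: cancer cells (7655 in sGC Ctr against 13478 in sGC ∆PC), macrophages (2058 and 2990), monocytes (455 and 466), dendritic cells (50 and 43), granulocytes (259 and 320), T cells (59 and 57), endothelial cells (ECs, 67 and 79), pericytes (40 and 46) and fibroblasts (120 and 253). Natural killer cells (10 and 6) and B cells (7 and 4) were too few to compare. In the 9 classes every marker was found in at least 25% of the cells of its class except 1 of the 6 dendritic-cell markers. Cells that passed more than 1 gate (556 and 2118) were left out as mixed. Those that passed no gate (884 and 2638, with medians of 4847 and 1458 UMIs) were left out too. In pericytes the targeted gene Gucy1b1 had 59 UMIs in sGC Ctr against 12 in sGC ∆PC, a level of 120 and 39.2 CPM (counts scaled to the usual common total of all UMIs of the class), with a log2 ratio of -1.61 (-2.64 to -0.70). Among pericytes with under 5% mitochondrial UMIs the log2 ratio was -0.92 (-2.23 to 0.21), so there the direction is the same and the interval spans 0. Cspg4, the gene whose promoter drives Cre, was at 158 and 78.4 CPM in the same cells.

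Glycolysis splits glucose to pyruvate in the cytosol and yields ATP without oxygen, and lactate dehydrogenase then turns pyruvate into lactate. When oxygen falls, the prolyl hydroxylases (Egln1, Egln3) that mark hypoxia-inducible factor (HIF) for destruction slow down, and stable HIF binds short DNA motifs with the core letters ACGTG or GCGTG and raises transcription of glycolytic enzymes, glucose and lactate transporters, collagen-modifying enzymes and angiogenic signals. Solid tumors often hold poorly perfused regions, and cancer cells can also use glycolysis in the presence of oxygen.

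Most members' promoters held the core letters ACGTG or GCGTG. The members were listed as known hypoxia genes, so the letters may not be independent of that choice. RefSeq promoters (GRCm38.p6, 250 bases before to 50 after the start of transcription) were at hand for 32 members, as 47 promoters of 300 bases. ACGTG or GCGTG was present on either strand in 37 of the 47 (78.7%), against 43.8% of all 32851 promoters. The members' promoters were rich in G and C, with a median of 65% against 52.7%, and among the 8852 promoters in the middle of the members' GC range 64.0% held a match. ACGTG alone, which also lies within the E-box CACGTG, was in 55.3% of the members' promoters, 19.6% of all promoters and 26.2% of those of like GC content, while GCGTG was in 55.3%, 32.4% and 52.6%. Of the 32 members 30 had a match and 23 had ACGTG in any of their promoters, and 11 members have 2 or 3 promoters. The like share of all genes was not counted. The triosephosphate isomerase gene Tpi1 and the lipoprotein receptor gene Vldlr had no match in this window. A match is a run of letters, not a measured binding site. Promoters of 5 members are printed, 5′ to 3′ on the strand of the gene, with ACGTG or GCGTG in capitals as read on either strand (CACGT and CACGC are their reverse complements). Adm, Ankrd37 and Car9 are shown because their levels in sGC Ctr stood furthest apart between cancer cells with much and little of the other hypoxia-response transcripts, Pfkfb4 because its levels did not, and Slc16a3 because it differed most between the libraries in cancer cells.
Adm (chr7:110627407-110627706, + strand): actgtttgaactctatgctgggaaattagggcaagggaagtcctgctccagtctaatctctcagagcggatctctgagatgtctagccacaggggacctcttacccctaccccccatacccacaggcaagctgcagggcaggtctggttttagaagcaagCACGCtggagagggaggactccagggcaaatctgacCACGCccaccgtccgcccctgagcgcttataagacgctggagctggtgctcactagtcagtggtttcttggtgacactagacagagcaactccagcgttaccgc
Ankrd37 (chr8:45999801-46000100, - strand): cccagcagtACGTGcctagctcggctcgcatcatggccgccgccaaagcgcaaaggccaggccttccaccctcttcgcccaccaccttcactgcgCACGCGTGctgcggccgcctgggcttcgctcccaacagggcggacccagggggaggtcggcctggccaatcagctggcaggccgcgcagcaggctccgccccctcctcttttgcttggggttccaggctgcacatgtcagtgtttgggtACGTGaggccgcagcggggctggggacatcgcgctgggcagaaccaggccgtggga
Car9 (chr4:43506776-43507075, + strand): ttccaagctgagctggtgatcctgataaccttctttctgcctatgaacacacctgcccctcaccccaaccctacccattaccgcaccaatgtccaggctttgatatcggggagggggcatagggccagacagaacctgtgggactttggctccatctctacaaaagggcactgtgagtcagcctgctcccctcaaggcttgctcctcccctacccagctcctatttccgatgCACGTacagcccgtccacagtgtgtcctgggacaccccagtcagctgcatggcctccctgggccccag
Pfkfb4 (chr9:108991652-108991951, + strand): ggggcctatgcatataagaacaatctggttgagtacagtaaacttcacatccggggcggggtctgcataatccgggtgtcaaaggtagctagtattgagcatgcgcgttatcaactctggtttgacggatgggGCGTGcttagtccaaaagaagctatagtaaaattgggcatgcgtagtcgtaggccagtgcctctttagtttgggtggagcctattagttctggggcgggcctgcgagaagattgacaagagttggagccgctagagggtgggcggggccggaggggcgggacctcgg
Slc16a3 (chr11:120948817-120949116, + strand): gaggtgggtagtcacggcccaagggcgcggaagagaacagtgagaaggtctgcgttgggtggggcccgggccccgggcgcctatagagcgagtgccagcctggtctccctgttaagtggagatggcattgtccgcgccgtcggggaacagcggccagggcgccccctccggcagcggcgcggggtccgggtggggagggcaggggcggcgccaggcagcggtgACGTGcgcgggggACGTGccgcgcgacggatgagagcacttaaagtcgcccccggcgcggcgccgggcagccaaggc
The Ankrd37 promoter held 4 matches, 2 of them ACGTG, and those of Adm and Slc16a3 held 2 each, which are GCGTG in Adm and ACGTG in Slc16a3. Car9 and Pfkfb4 each had 1 match, an ACGTG in Car9 and a GCGTG in Pfkfb4. The number of matches thus did not set Pfkfb4 apart from Car9.

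The first question was which cells of the tumor held these transcripts. Summed over the 36 members, the level was highest in fibroblasts, at 14581 CPM in sGC Ctr against 15190 in sGC ∆PC, and lowest in dendritic cells, at 7242 and 6834 CPM. Monocytes held 14068 and 13760 CPM, granulocytes 13367 and 13999, macrophages 12334 and 12640, and cancer cells 10126 and 10917. ECs (10483 and 10228 CPM), pericytes (9756 and 9172) and T cells (7661 and 7827) held less than macrophages in both libraries. Monocytes and granulocytes changed places between the libraries, as did cancer cells and ECs, so those neighbors in the order do not differ consistently. The level is the sum of UMIs over the cells of a class as CPM of that class, and it is not scaled by gene length because this assay counts the 3′ end of each molecule once. It is a share of the RNA of a class, not an amount per cell. In sGC Ctr the median cancer cell held 50213 UMIs against 2071 in the median granulocyte, so a higher CPM need not mean more transcripts per cell. RNA set free from broken cells enters every droplet: the 4 cancer-cell markers stood in the other classes at 5.36% to 17.5% of their cancer-cell level, lowest in sGC Ctr pericytes and highest in sGC ∆PC granulocytes. In fibroblasts, monocytes, macrophages and ECs of both libraries all 36 members were above that share. The members at or below it elsewhere were Vldlr, Plod2, Car9 and P4ha2. That bar is low, and how many of all genes lie above it was not counted. The count therefore does not set the members apart from other genes.

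As sums, the enzymes and the other members were spread differently over the cells. Together the 12 enzymes ranged from 60.9% of the cancer-cell level in sGC ∆PC dendritic cells to 130% in sGC Ctr monocytes. Single enzymes could range more widely: in sGC ∆PC, Hk2 stood at 16.7% in ECs and 482% in granulocytes. The 24 other members reached 282% of the cancer-cell level in fibroblasts of both libraries and 284% and 287% in granulocytes, against 185% and 180% in monocytes, 129% and 129% in ECs, 134% and 120% in pericytes and 111% and 117% in macrophages. Their summed level was 1651 and 1750 CPM in cancer cells, 4653 and 4938 CPM in fibroblasts and 4697 and 5023 CPM in granulocytes, and the intervals of the last 2 classes overlapped (4572 to 4736 and 4520 to 4879 CPM in sGC Ctr). In T cells (80.6% and 77.7%) and dendritic cells (73.6% and 71.4%) they were below the cancer cells. The plot of summed levels by class shows this contrast. The cancer-cell markers in granulocytes were at 14.9% and 17.5% of their cancer-cell level; in granulocytes without a UMI of those markers (87 and 111 cells) the 24 members stood at 336% and 286% of the cancer-cell level.

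**Figure D1:**
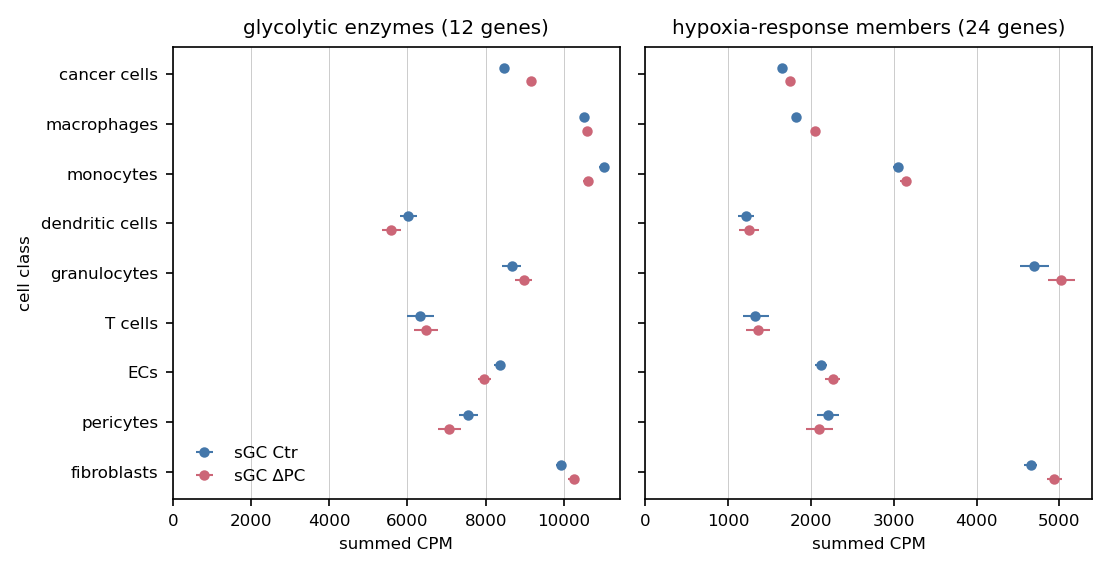
Summed level (CPM, horizontal axis) of the 12 glycolytic enzymes and of the 24 hypoxia-response members in each of the 9 cell classes (vertical axis), with 1 point per library and bars for the exact Poisson 95% interval of counting error. The 24 members reach 4653 to 5023 CPM in fibroblasts and granulocytes against 1651 and 1750 CPM in cancer cells, while the enzymes differ less between classes.

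Counted gene by gene over both libraries, the highest level of the 9 classes lay in fibroblasts for 12 members and in granulocytes for 12, against 12.8% and 9.37% of all 16064 genes compared. ECs, macrophages and monocytes were highest for 3 members each, where 13.6%, 7.21% and 5.31% of all genes have their highest level. Cancer cells (13.7% of all genes), dendritic cells (7.81%) and pericytes (13.9%) were highest for 1 member each, and T cells (16.3%) for none. The highest class was the same in both libraries for 29 members. It changed for Tpi1, Eno1, Pdk1, Car9, Bnip3, Ddit4 and Ankrd37, whose leading classes were close in the mean of both libraries. Within 1 library some were further apart. In sGC ∆PC Ankrd37 stood at 674% of the cancer-cell level in ECs against 446% in monocytes. The sparse Car9 stood there at 320% in dendritic cells against 87.4% in fibroblasts. Against cancer cells alone, 33 of the 36 members were higher in fibroblasts of both libraries, 29 and 27 in monocytes. The counts were 25 and 26 in macrophages, 23 and 24 in granulocytes, 22 and 19 in ECs and 17 and 15 in pericytes. In T cells they were 11 and 11, and in dendritic cells 10 and 9. The share of all genes higher than in cancer cells was not counted, so these counts cannot be set against a general rate.

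**Figure D2:**
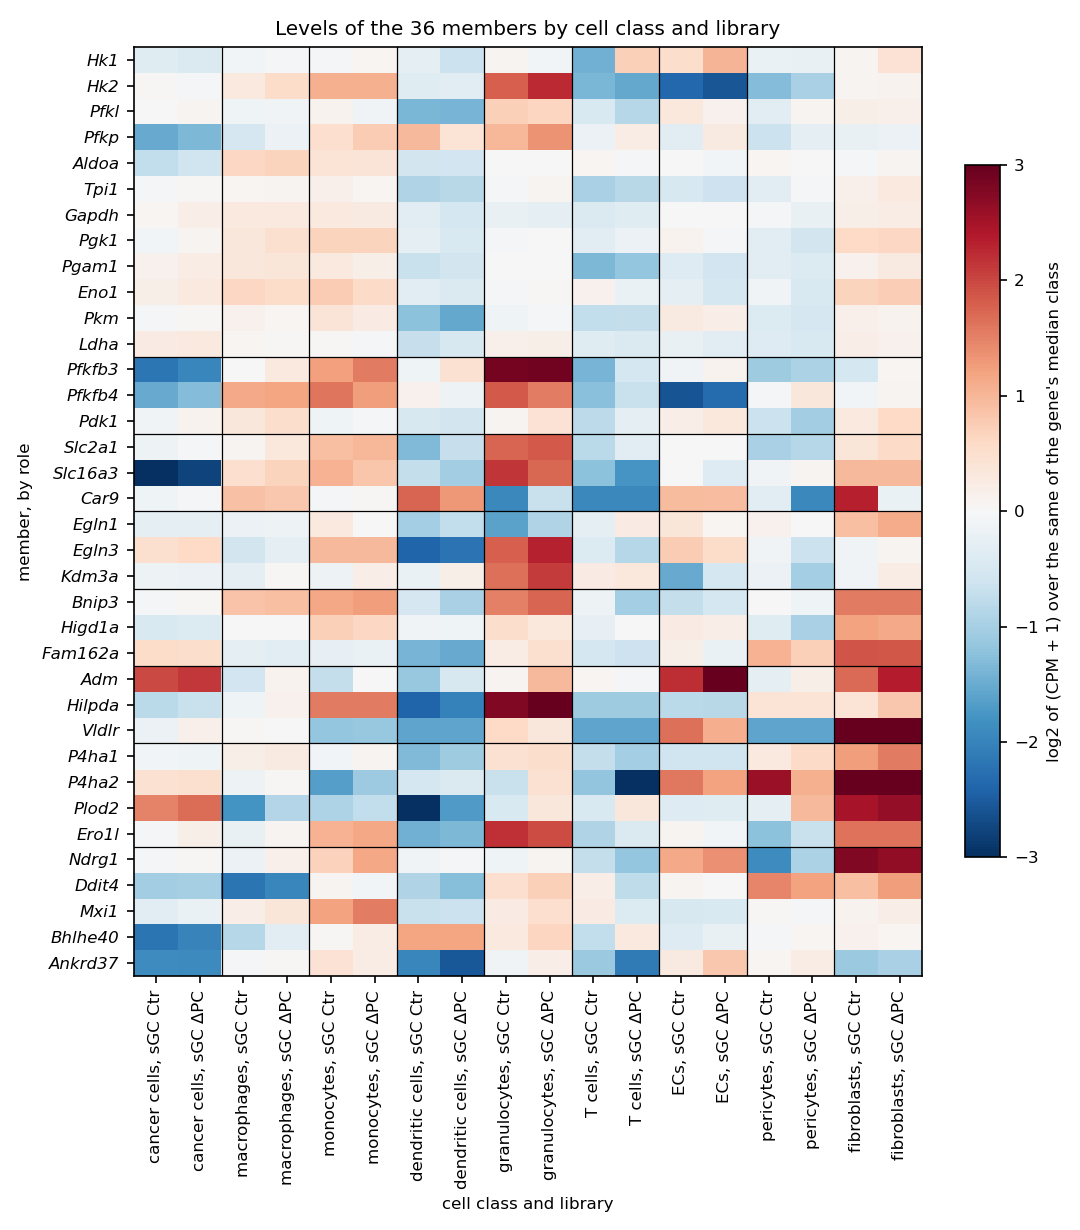
Level of each of the 36 members (rows, by role) in each cell class and library (columns), colored by log2 of CPM + 1 over the same in the gene's median class. Granulocytes and fibroblasts hold the highest level of 12 members each.

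Among the enzymes of the middle and lower pathway, no class was highest for all. Gapdh, the dehydrogenase that oxidizes glyceraldehyde phosphate, ranged from 2123 CPM in sGC ∆PC dendritic cells to 3790 CPM in sGC Ctr macrophages, and was 31.4% and 32.3% of the members' summed UMIs in cancer cells. Tpi1, which interconverts the triose phosphates, had the smallest ratio of the highest to the median class of all members, 1.16, with 761 and 842 CPM in fibroblasts and 763 and 719 CPM in monocytes. Ldha, the lactate dehydrogenase subunit that favors lactate, was the only member highest in cancer cells, at 1130 and 1173 CPM, only 1.07 times its level in fibroblasts (1100 and 1049 CPM). Aldolase A (Aldoa) was highest in macrophages, at 1416 and 1450 CPM, and lowest in cancer cells, at 546 and 603 CPM. Phosphoglycerate kinase (Pgk1, 875 and 865 CPM) and pyruvate kinase (Pkm, 1498 and 1367 CPM) were highest in monocytes, and phosphoglycerate mutase (Pgam1, 644 and 650 CPM) in macrophages. Gapdh and Eno1 have near-identical copies in the genome, and how reads were shared with them is uncertain.

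At the entry to the pathway, where its committed steps lie, Hk2 and Pfkp were uneven across classes. Hexokinase 2 (Hk2), the inducible form, was at 478 and 644 CPM in granulocytes and 286 and 289 CPM in monocytes, but at 139 and 134 CPM in cancer cells and 25.7 and 22.4 CPM in ECs. Hexokinase 1 (Hk1), the form found in most tissues, had the opposite place in ECs, its highest class, at 77.2 and 109 CPM, against 41.4 and 39.4 CPM in cancer cells. The platelet form of phosphofructokinase (Pfkp) was at 257 and 328 CPM in granulocytes, 252 and 170 CPM in dendritic cells and 44.3 and 49.9 CPM in cancer cells, its lowest class. The liver form (Pfkl) was more even, from 31.2 CPM in sGC ∆PC dendritic cells to 138 CPM in sGC Ctr granulocytes. For Hk2 not every myeloid class was above the cancer cells: macrophages stood at 120% and 150% of the cancer-cell level and dendritic cells at 75.7% and 80.5%.

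Granulocytes also held the highest levels of several regulators of flux and transporters. Pfkfb3, which makes the activator of phosphofructokinase, was at 294 and 295 CPM in granulocytes, 92.9 and 117 CPM in monocytes and 7.94 and 9.31 CPM in cancer cells. Pfkfb4, its relative, was at 47.8 and 39.0 CPM in granulocytes and 3.82 and 4.55 CPM in cancer cells. Pdk1, the kinase that shuts pyruvate dehydrogenase, was nearly even, between 19.6 CPM in sGC ∆PC pericytes and 64.0 CPM in sGC ∆PC fibroblasts. The glucose transporter Slc2a1 was at 423 and 447 CPM in granulocytes and 113 and 120 CPM in cancer cells. Slc16a3, which exports lactate, was at 597 and 447 CPM in granulocytes, 266 and 265 CPM in fibroblasts and 280 and 241 CPM in monocytes, but at 12.4 and 18.9 CPM in cancer cells, its lowest class. Cancer cells were thus the highest class for Ldha, by a small margin, and the lowest for Slc16a3. For Slc16a1, a transporter gene outside the set, cancer cells were the second-highest class. It was there at 55.3 CPM in the mean of both libraries, against 152 CPM in fibroblasts. Car9, a carbonic anhydrase at the cell surface, was sparse everywhere, with 49 UMIs in sGC Ctr fibroblasts (18.4 CPM) and 5 in sGC ∆PC fibroblasts (2.32 CPM), and its order of classes is not resolved.

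Oxygen sensors, survival genes and secreted factors split between granulocytes, fibroblasts and ECs. The HIF hydroxylase gene Egln3 was at 198 and 285 CPM in granulocytes against 79.0 and 85.6 CPM in cancer cells, while Egln1 was lowest there, at 35.4 and 58.5 CPM, and highest in fibroblasts, at 206 and 241 CPM. The histone demethylase gene Kdm3a was at 88.5 and 121 CPM in granulocytes and at most 34.6 CPM in every other class. Bnip3, which promotes removal of mitochondria, was at 233 and 233 CPM in fibroblasts and 227 and 266 CPM in granulocytes. The mitochondrial genes Fam162a (665 and 649 CPM) and Higd1a (413 and 394 CPM) were highest in fibroblasts, against 263 and 257 CPM and 131 and 135 CPM in cancer cells. Hilpda, a lipid-droplet protein that inhibits lipolysis, was at 899 and 1050 CPM in granulocytes and 386 and 387 CPM in monocytes, against 74.5 and 82.5 CPM in cancer cells. Adm, the vasodilator peptide adrenomedullin, was highest in ECs, at 152 and 329 CPM, and at 129 and 142 CPM in cancer cells, while no immune class exceeded 64.0 CPM.

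Vldlr and P4ha2 were the most unevenly spread members, and the other collagen-modifying enzymes were less so. Vldlr, a receptor for lipoproteins, had 238 and 197 UMIs in fibroblasts, or 89.1 (78.2 to 101) and 91.4 (79.1 to 105) CPM. It was at 1.64 and 2.36 CPM in cancer cells and had no UMI in pericytes, where a count of 0 allows up to 7.48 and 12.1 CPM. Its fibroblast level was 45.2 times its median class, the largest such ratio among the members. P4ha2, a subunit of the prolyl hydroxylase that stabilizes collagen, followed at 22.1 times, with 270 and 257 CPM in fibroblasts and 16.6 and 17.0 CPM in cancer cells. P4ha1, a related gene, was less uneven, at 303 and 373 CPM in fibroblasts and 118 and 114 CPM in cancer cells. Plod2, which hydroxylates lysines of collagen, was at 223 and 251 CPM in fibroblasts and 112 and 127 CPM in cancer cells but at 10.7 and 21.0 CPM in macrophages. Ero1l, an oxidase of protein folding, was at 572 and 491 CPM in granulocytes and 389 and 388 CPM in fibroblasts. P4ha1, P4ha2 and Plod2 were highest in fibroblasts, a class whose own gate used collagen genes, whereas Ero1l was highest in granulocytes.

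Summed, the stress and transcription genes were highest in fibroblasts, at 413% and 401% of the cancer-cell level, but gene by gene the highest class differed. Ndrg1, a stress-induced gene of differentiation, was at 486 and 445 CPM in fibroblasts and 67.9 and 72.1 CPM in cancer cells. Ddit4, an inhibitor of the growth kinase mTORC1, was at 345 and 288 CPM in pericytes and 232 and 299 CPM in fibroblasts, and lowest in macrophages at 26.3 and 31.5 CPM. The transcriptional repressor genes Bhlhe40 and Mxi1 were highest in dendritic cells (272 and 272 CPM) and in monocytes (155 and 195 CPM). Ankrd37, an ankyrin-repeat gene, was at 125 and 182 CPM in ECs and 140 and 120 CPM in monocytes. Cancer cells were the lowest class for Bhlhe40, at 25.3 and 29.0 CPM.

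The second question was how far the members varied among cells of 1 class. Cancer cells and macrophages with at least 5000 UMIs were thinned at random to 5000 UMIs, ordered within each library by their summed UMIs of the 24 hypoxia-response members and cut into 5 groups of equal size; for each of the 24 the order was made without that gene. The order used those 24 genes, so their values describe how they go together and are not independent of one another, while the 12 enzymes were not used to order the cells. In cancer cells the bottom group (1491 and 2354 cells) held a median of 2 and 3 UMIs of the 24 members, and the top group (1490 and 2353 cells) 17 and 16. Depth before thinning was similar along the order, with medians of 47834 and 52241 UMIs in the bottom and top groups of sGC Ctr and 15868.5 and 16657 in sGC ∆PC.

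The glycolytic enzymes followed that order. Their summed level went from 6412 to 12231 CPM in sGC Ctr cancer cells and from 7647 to 11989 CPM in sGC ∆PC. In sGC Ctr all 12 enzymes were at least 1.5-fold higher in the top than in the bottom group, where 4.97% of 9657 genes were that much higher and 7.77% that much lower. In sGC ∆PC 9 of the 12 were, against 6.49% of 10504 genes higher and 3.21% lower, and Gapdh, Eno1 and Pkm stayed under it with folds of 1.44, 1.43 and 1.4. The median fold was 2.01 in sGC Ctr against 1.62 in sGC ∆PC. The widest ratios were those of Pfkp (27.8 to 89.4 CPM in sGC Ctr and 30.7 to 86.8 CPM in sGC ∆PC), Pgk1 (309 to 950 and 401 to 911 CPM) and Hk2 (85.7 to 259 and 83.0 to 218 CPM), and the narrowest those of Pkm (883 to 1461 and 1005 to 1410 CPM). Pfkp, Hk2 and Pgk1 thus differed more along the order than the abundant Gapdh and Pkm did. With cells thinned to 2000 UMIs the summed enzymes were 1.79-fold and 1.45-fold higher in the top group, against 1.91-fold and 1.57-fold at 5000 UMIs. At that depth all 12 enzymes were still past 1.5-fold in sGC Ctr (5.51% of 7822 genes), but only 5 of 12 in sGC ∆PC (7.02% of 9160 genes): Hk2, Pfkl, Pfkp, Aldoa and Pgk1.

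Of the hypoxia-response members, 22 of 23 with at least 50 UMIs in sGC Ctr cancer cells and 23 of 24 in sGC ∆PC were at least 1.5-fold higher in the top group, with median folds of 4.11 and 3.32. Of the genes other than these members, 4.97% and 6.49% were that much higher. Those shares come from the order made with all 24 members, not from the order that leaves out the gene read. Adm went from 37.2 to 414 CPM in sGC Ctr (11.1-fold, log2 3.48, 3.30 to 3.66) and from 47.3 to 375 CPM in sGC ∆PC (7.92-fold, log2 2.99, 2.86 to 3.12). Ankrd37 went from 47 to 577 UMIs in sGC Ctr (12.3-fold, log2 3.62, 3.19 to 4.08) and from 153 to 704 UMIs in sGC ∆PC (4.60-fold). Car9 had 3 UMIs in the bottom group and 55 in the top group of sGC Ctr, a ratio of 18.3 (log2 4.20, 2.57 to 6.52), and 12 and 81 UMIs in sGC ∆PC (6.75-fold). These folds depend on the depth: at 2000 UMIs Adm was 10.5-fold and 6.62-fold higher in the top group and Ankrd37 6.11-fold and 3.47-fold. Car9 at 2000 UMIs had 2 and 30 UMIs in sGC Ctr, a ratio of 15 (log2 3.91, 1.93 to 7.02), and 2 and 41 in sGC ∆PC, a ratio of 20.5 (log2 4.36, 2.41 to 7.45), so its ratio is not larger in 1 library at both depths. Ero1l (9.82-fold and 6.52-fold), Ndrg1 (8.97-fold and 6.36-fold), Bnip3 (7.10-fold and 4.49-fold) and Slc2a1 (5.71-fold and 4.08-fold) were also far apart. Slc16a3, although low in cancer cells, went from 6.04 to 24.6 CPM in sGC Ctr and from 12.7 to 37.2 CPM in sGC ∆PC. Pfkfb4 was the exception, with 32 and 33 UMIs in the bottom and top groups of sGC Ctr (log2 0.05, -0.70 to 0.79) and 57 and 53 in sGC ∆PC (log2 -0.10, -0.67 to 0.46). The macrophage markers, read in the same cancer cells, were at 73.1 and 116 CPM in sGC Ctr and 248 and 322 CPM in sGC ∆PC, and their part in these differences was not tested.

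**Figure D3:**
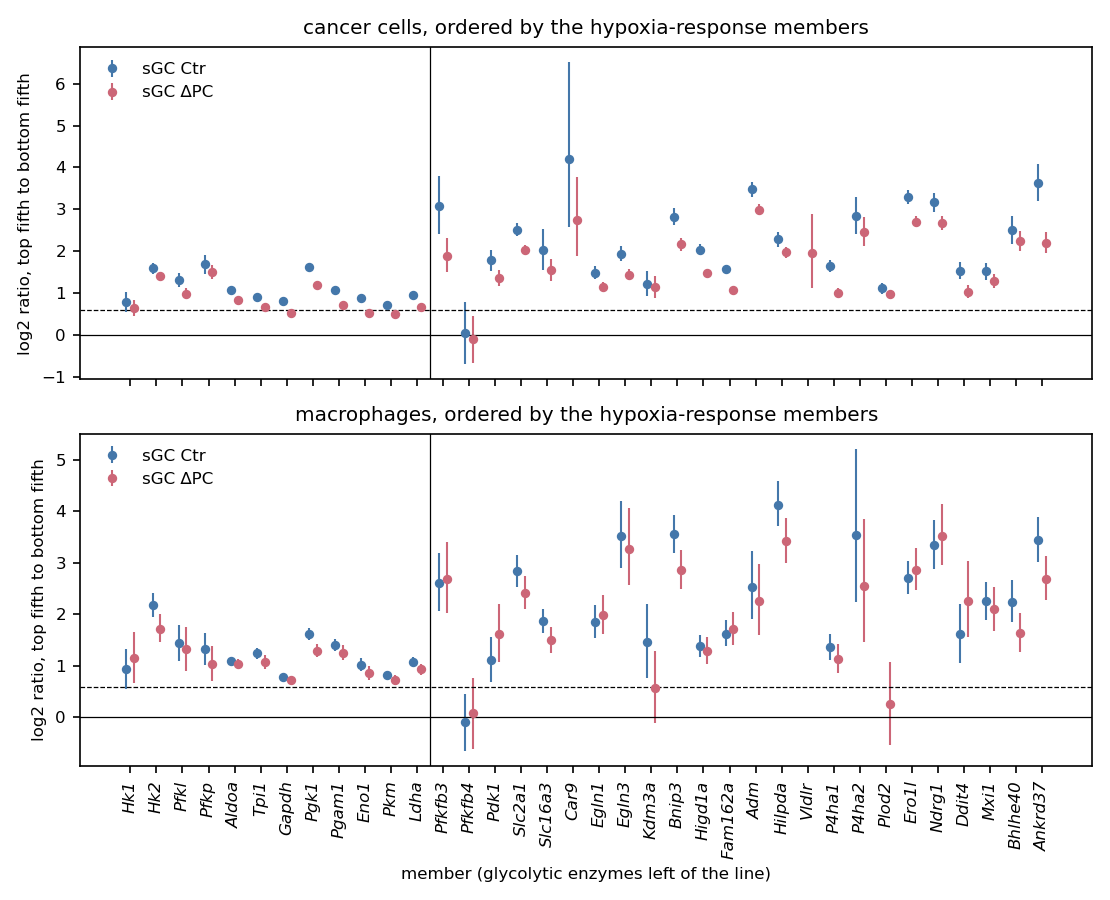
Log2 ratio of each member between the top and the bottom group of cells (vertical axis) in cancer cells and in macrophages, at 5000 UMIs a cell, with the 12 glycolytic enzymes left of the vertical line, 1 point per library for members with at least 50 UMIs, bars for the 95% counting interval and a dashed line at 1.5-fold. In cancer cells all 12 enzymes lie above 0 in both libraries, and Pfkfb4 is the member nearest to 0.

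Macrophages had the same pattern among themselves. The summed enzymes went from 7675 to 15616 CPM in sGC Ctr (389 and 388 cells in the bottom and top groups) and from 7844 to 14761 CPM in sGC ∆PC (282 cells in each). All 12 enzymes were at least 1.5-fold higher in the top group of both libraries, where 9.17% of 7046 genes in sGC Ctr and 10.4% of 5986 genes in sGC ∆PC were that much higher, and 13.6% and 13.5% that much lower. Of the hypoxia-response members with at least 50 UMIs, 20 of 21 in sGC Ctr and 19 of 22 in sGC ∆PC were past 1.5-fold; Pfkfb4 was not in either, nor were Plod2 and Kdm3a in sGC ∆PC. Hilpda went from 24.2 to 423 CPM in sGC Ctr (17.5-fold, log2 4.13, 3.71 to 4.59) and from 34.8 to 372 CPM in sGC ∆PC (10.7-fold), and Ndrg1 from 21.6 to 219 CPM and from 19.9 to 228 CPM (10.1-fold and 11.5-fold). Pfkfb4 again did not differ beyond its interval, with 59 and 55 UMIs in sGC Ctr and 37 and 39 in sGC ∆PC. Macrophage markers went the other way, from 15186 to 10920 CPM in sGC Ctr and from 13516 to 8879 CPM in sGC ∆PC, and cancer-cell markers stood at 130 and 128 CPM and at 143 and 148 CPM. Median depth before thinning was lower in the top group, at 12464 and 10440 UMIs in sGC Ctr, against 13655 and 11303 in sGC ∆PC, and its part was not tested.

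Genes of the same pathway outside the set were read in the same groups of cells. Of all genes not used to order the cells, 4.97% in sGC Ctr and 6.49% in sGC ∆PC cancer cells were at least 1.5-fold higher in the top group. In macrophages these shares were 9.17% and 10.4%. Of 12 other known hypoxia targets, 7 of the 10 with enough UMIs in sGC Ctr cancer cells and 8 of 11 in sGC ∆PC were at least 1.5-fold higher in the top group, as were 6 of 6 and 4 of 4 in macrophages. Vegfa, the main growth factor of blood vessels, was 4.37-fold and 3.37-fold higher in cancer cells and 10.2-fold and 10.9-fold higher in macrophages, where it went from 17.0 to 173 CPM and from 22.0 to 240 CPM. Of 12 other glycolysis genes, 1 of 9 in sGC Ctr cancer cells (Gpi1, the isomerase between the hexokinase and phosphofructokinase steps, 2.35-fold) and 3 of 9 in sGC ∆PC (Gpi1, Aldoc and Eno1b) were higher. Ldhb, the lactate dehydrogenase subunit that favors pyruvate, was lower in both at 5000 UMIs, at 0.624 and 0.538 times the bottom group. At 2000 UMIs it was at 0.607 (log2 -0.72, -1.68 to 0.20) and 0.750 (-0.41, -1.11 to 0.27) times, with intervals that span 0. Of the 6 regulators of HIF, Vhl, part of the ligase that tags HIF, was 2.16-fold and 1.81-fold higher in cancer cells at 5000 UMIs, but 1.18-fold (log2 0.24, -0.53 to 1.02) and 1.26-fold (0.34, -0.20 to 0.89) at 2000 UMIs. The HIF hydroxylase gene Egln2 went the other way, at 0.656 (log2 -0.61, -0.92 to -0.29) and 0.749 (-0.42, -0.69 to -0.15) times the bottom group in cancer cells, past 1.5-fold in sGC Ctr, and at 0.600 times in sGC ∆PC macrophages. Hif1a, the oxygen-regulated subunit itself, was 1.45-fold and 1.22-fold higher in cancer cells and 1.66-fold and 1.99-fold higher in macrophages.

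The third comparison, between sGC ∆PC and sGC Ctr, used cells thinned to 2000 UMIs, because the median cancer cell held 50213 UMIs in sGC Ctr against 13425 in sGC ∆PC. Cells under 2000 UMIs were left out, among them 998 of 2990 macrophages and 95 of 253 fibroblasts of sGC ∆PC against 22 of 2058 and 3 of 120 of sGC Ctr. Log2 ratios are sGC ∆PC over sGC Ctr, and a member was called past 1.5-fold only where it had at least 50 UMIs in both libraries together. In cancer cells the summed members were at 9951 CPM in sGC Ctr and 11100 CPM in sGC ∆PC, a log2 ratio of 0.158 (0.149 to 0.167), and 0.108 with all UMIs. Every other class had a log2 ratio of the sum between -0.066 and 0.029 except T cells, where it was 0.209 (0.059 to 0.359) at 2000 UMIs and 0.031 with all UMIs. For the sum, the differences between the ways of setting depth were as large as most of the ratios. The plot of library ratios shows the enzymes and the hypoxia-response members separately.

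**Figure D4:**
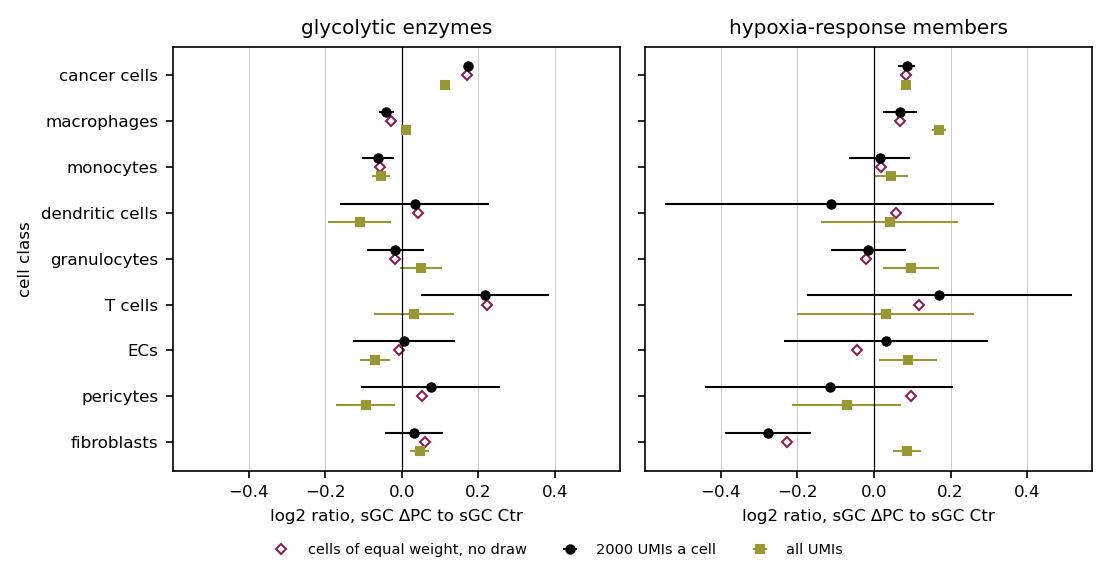
Log2 ratio, sGC ∆PC over sGC Ctr, (horizontal axis) for the glycolytic enzymes and the hypoxia-response members in 9 cell classes. Values are at 2000 UMIs a cell, with all UMIs, and with each cell weighted equally without a draw. Bars are 95% counting intervals. With equal weight the cancer cells lie at 0.171 for the enzymes and 0.085 for the hypoxia-response members. The hypoxia-response members of fibroblasts change sign between 2000 UMIs and all UMIs.

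In cancer cells (7555 and 12852 at this depth) 2 of 36 members were past 1.5-fold, both higher in sGC ∆PC, where 6.16% of 11388 genes were higher by that much and 2.28% lower. The median member had a log2 ratio of 0.12, against -0.05 for all genes, and 27 of 36 members were above 0. Intervals lay above 0 for 19 members and below 0 for 3 (Hk1, Hk2 and P4ha1), against 15.6% and 22.2% of all genes, and an abundant gene has a narrower interval. Of the 12 enzymes 9 had an interval above 0: Pgk1 had the largest ratio, with 509 and 615 CPM (log2 0.27, 0.23 to 0.31), followed by Eno1 (0.23) and Aldoa (0.22), and Gapdh went from 3063 to 3535 CPM (0.21). Hk2 was lower, at 144 and 135 CPM (-0.10, -0.17 to -0.02). The lower steps of the pathway were thus slightly higher in sGC ∆PC, by at most 0.27 on the log2 scale, while both hexokinases were slightly lower. The other entry enzymes did not go with the hexokinases: with cells of equal weight the ratio was 0.23 for Pfkp and 0.03 for Pfkl.

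The 2 members past 1.5-fold in cancer cells were Slc16a3 and Vldlr. Slc16a3, a lactate exporter, had 206 UMIs in sGC Ctr against 691 in sGC ∆PC, or 13.6 and 26.9 CPM. Its log2 ratio was 0.98 (0.75 to 1.21), and 0.61 (0.55 to 0.66) with all UMIs. Vldlr had 25 and 67 UMIs, with a ratio of 0.66 whose interval spans 0 (-0.03 to 1.38). Slc16a3 is more than 10 times as high in macrophages as in cancer cells of both libraries, and macrophage markers in cancer cells stood at 0.766% of their macrophage level in sGC Ctr and 1.94% in sGC ∆PC. In the 6515 and 8492 cancer cells without a UMI of the macrophage markers, Slc16a3 had 160 and 332 UMIs, 12.3 and 19.5 CPM, with a log2 ratio of 0.67 (0.39 to 0.95). The direction was thus the same in cells free of those markers, and the ratio was smaller.

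**Figure D5:**
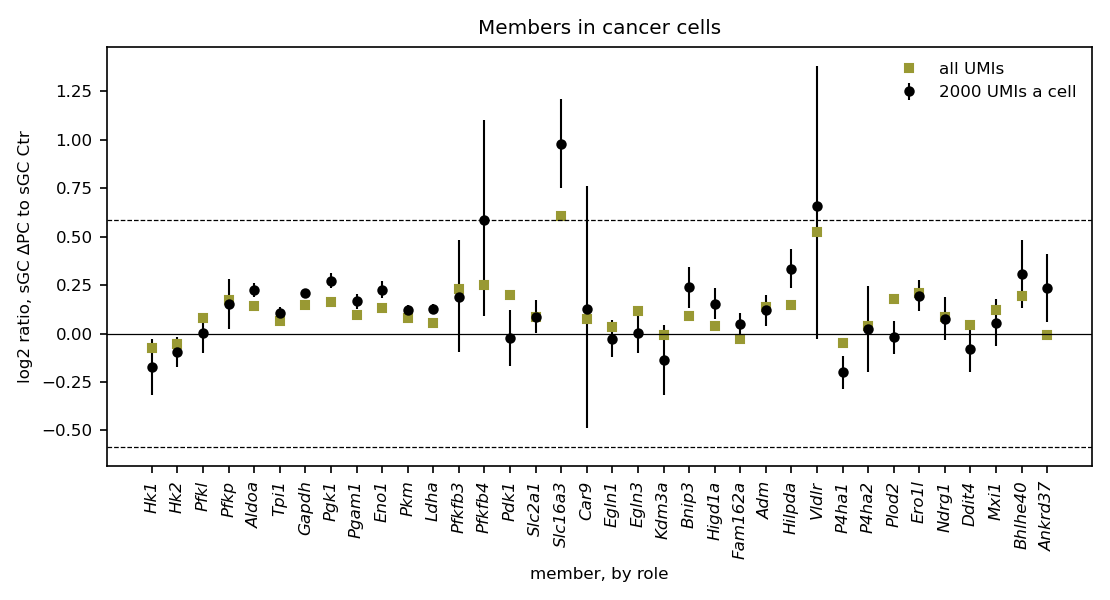
Log2 ratio, sGC ∆PC over sGC Ctr, (vertical axis) for each of the 36 members in cancer cells, by role, at 2000 UMIs a cell with 95% counting intervals and with all UMIs. Slc16a3 stands highest at 0.98, 19 members have an interval above 0, and Hk1, Hk2 and P4ha1 have one below 0.

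In each of macrophages, granulocytes and dendritic cells 1 member was past 1.5-fold, and in macrophages and granulocytes its share of the members lies at or below that of all genes. In macrophages 1 of 34 members was past 1.5-fold, where 3.86% of 8916 genes were higher in sGC ∆PC and 3.26% lower. It was Plod2, the lysyl hydroxylase, with 31 UMIs in sGC Ctr against 103 in sGC ∆PC, or 7.61 and 25.9 CPM (log2 1.76, 1.17 to 2.39), and 0.98 with all UMIs. The size depends on the draw and the cells: with cells of equal weight and no draw the log2 ratio was 1.28. It was 1.24 (0.61 to 1.89) with mitochondrial UMIs under 5% and 0.82 (0.32 to 1.34) with Leiden clusters. Cancer cells held the second-highest level of Plod2 after fibroblasts. In macrophages without a UMI of the cancer-cell markers the log2 ratio was 1.94 (1.22 to 2.72). In granulocytes 1 of 26 members was past 1.5-fold (9.15% of 1508 genes higher and 7.23% lower): the HIF hydroxylase gene Egln3, with 59 and 124 UMIs, 209 and 328 CPM (0.65, 0.19 to 1.12). Without granulocytes that hold a cancer-marker UMI the ratio of Egln3 was 0.42 (-0.16 to 1.01). None of the 31 members in monocytes was past it (4.39% of 4081 genes higher and 3.28% lower). The summed hypoxia-response members of macrophages were at 1991 and 2087 CPM (0.07, 0.02 to 0.11), and their summed enzymes at 10760 and 10467 CPM (-0.04, -0.06 to -0.02). The cancer-cell markers in macrophages were at 7.29% and 9.53% of their cancer-cell level.

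In vascular and other stromal classes few members had enough UMIs. In ECs 1 of 9 members was past 1.5-fold (4.12% of 656 genes higher and 6.86% lower): Adm, with 18 and 33 UMIs, 150 and 289 CPM (0.95, 0.08 to 1.86). With all UMIs, 237 and 368, Adm was at 152 and 329 CPM (1.11, 0.87 to 1.35), and in ECs free of cancer-marker UMIs the ratio was 1.46 (0.38 to 2.63). The interval spans 0 among ECs with under 5% mitochondrial UMIs (0.64, -0.34 to 1.63) and at 1000 UMIs (1.23, -0.01 to 2.61). In pericytes, the class the deletion is aimed at, 1 of 9 members was past 1.5-fold (4.6% of 348 genes higher and 10.1% lower): Pgk1, with 38 and 16 UMIs, whose interval spans 0 (-0.63, -1.57 to 0.25). The 40 and 26 pericytes at this depth held 10388 and 10596 CPM of the summed members, a log2 ratio of 0.03 (-0.13 to 0.19), an interval that reaches a size of 0.19 above 0. Their cancer-cell markers were at 5.36% in sGC Ctr against 12.9% in sGC ∆PC, and the part of that RNA was not tested. In dendritic cells 1 of 9 members (Pgk1, 0.79, -0.05 to 1.64) was past 1.5-fold, against 5.38% of 390 genes higher and 7.18% lower. In T cells none of 7 was, against 5.42% of 443 genes higher and 9.26% lower.

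In fibroblasts 3 of 25 members were past 1.5-fold and all 3 were lower in sGC ∆PC, where 4.72% of 1548 genes were higher and 11.8% lower. Ndrg1 had 142 UMIs in sGC Ctr against 100 in sGC ∆PC, or 607 and 316 CPM (-0.94, -1.32 to -0.56). Ero1l had 127 and 103 UMIs, or 543 and 326 CPM (-0.74, -1.13 to -0.35), and P4ha2 80 and 69 UMIs, or 342 and 218 CPM (-0.65, -1.13 to -0.16). These values depend on how depth was set. With all UMIs the ratios were -0.13 for Ndrg1, -0.00 for Ero1l and -0.07 for P4ha2, and with each cell weighted equally and no random draw they were -0.93, -0.51 and -0.14. The summed hypoxia-response members were at 5274 and 4351 CPM (-0.28, -0.39 to -0.17) at 2000 UMIs and at 4653 and 4938 CPM (0.09, 0.05 to 0.12) with all UMIs, so their direction turned. The median fibroblast held 21397.5 UMIs in sGC Ctr against 2517 in sGC ∆PC, and their cancer-cell markers were at 5.62% and 9.87%.

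Pathway genes outside the set were also compared between the libraries. Of the HIF regulators none of 5 with enough UMIs was past 1.5-fold in cancer cells; Hif1a had 1398 and 2650 UMIs (0.16, 0.06 to 0.25). Of the other hypoxia targets 2 of 11 were higher there, as were 6.16% of all genes. They were Lox, a collagen cross-linking enzyme (7 and 85 UMIs, 2.84, 1.73 to 4.19), and Stc1, a secreted glycoprotein (132 and 395 UMIs, 0.81, 0.53 to 1.11). With cells of equal weight and no draw the ratio was 2.20 for Lox and 0.54 for Stc1, which puts Stc1 under 1.5-fold. Lox was at its highest in fibroblasts, 119 times its next class. In macrophages 2 of 8 other hypoxia targets were higher in sGC ∆PC by at least 1.5-fold, as were 3.86% of all genes. Among them was Vegfa, with 255 and 400 UMIs (0.68, 0.45 to 0.91). With cells of equal weight and no draw its ratio was 0.51, under 1.5-fold. Of other glycolysis genes, Slc2a3 was 1 of 10 in cancer cells, with an interval that spans 0 (0.62, -0.05 to 1.33), and Aldoc (0.69) and Slc16a1 (0.62) were 2 of 7 in macrophages. With cells of equal weight and no draw the ratios were 0.64 for Slc2a3, 0.50 for Aldoc and 1.15 for Slc16a1, which puts Aldoc under 1.5-fold. Higher elsewhere were 1 of 2 other glycolysis genes in monocytes (4.39% of all genes) and 2 of 3 other hypoxia targets in granulocytes (9.15%). Lower in sGC ∆PC were 1 of 5 HIF regulators in macrophages (3.26%), Egln2, 1 of 2, in monocytes (3.28%), and Hif1a, 1 of 2, in ECs (6.86%). Stc1, the only other hypoxia target with enough UMIs in ECs, and 1 of 5 in fibroblasts (11.8%) were also lower. With cells of equal weight and no draw, Egln2 in monocytes (-0.16) and Hif1a (-0.29) and Stc1 (-0.11) in ECs were all within 1.5-fold.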

How the data were processed

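Single-cell RNA of LLC tumors was counted in 1 library of 3 pooled tumors for each of sGC Ctr and sGC ∆PC. Per the labels and the study's methods, the authors used a 3′ droplet kit and Cell Ranger 6.1.1 with the mm10 genome, and deposited raw UMI counts per gene and barcode. These counts were used without normalization. Barcodes had to hold less than 10% mitochondrial UMIs, and their log UMIs and log genes had to lie at most 3 median absolute deviations from the median of the library. A cell was given a class where its summed markers reached a minimum per 10000 UMIs with at least 2 markers found and no other class reached its own. Gates were set after marker levels, but not member values, were seen. Cells within 1.4 times a gate numbered 73 and 341 in macrophages and 6 and 31 in fibroblasts of sGC Ctr and sGC ∆PC. No doublet caller was run, and cells passing more than 1 gate or no gate were left out. The 2 gene identifiers that share the symbol Aldoa were summed.

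Levels are CPM of all UMIs of a class. Between libraries each cell was thinned without replacement to 2000 UMIs (5000 for the groups of cells ordered by hypoxia-response UMIs) and 1.5-fold calls needed 50 UMIs in both libraries together, with a pseudocount of 0.5 counts for the background of all genes. Intervals are exact Poisson for levels and exact conditional (Clopper-Pearson) for ratios, at 95%; UMIs are not independent of cells, so the intervals cover counting error only. A count of 0 was given the upper end of its exact Poisson interval as a limit. The members, the other gene lists and the marker lists were chosen with earlier results of these data known. All 36 members are described; 1 gene of the other lists is not reported here by itself. Values are given in full for members past 1.5-fold in a class, for those with the highest and lowest ratio of top to median class, and for the most and least different between the top and bottom groups. On simulated macrophages with 200 of 8910 genes changed 2-fold, 99% of these were past 1.5-fold, as were 2.55% of the unchanged genes. Of the intervals over all genes 95.6% held the true value. All simulated cells of a library shared the same profile, so this check covers counting error and not variation between cells. Only genes with many UMIs were changed, so it does not cover members near 50 UMIs or the small classes. Alternatives were all UMIs, 1000 UMIs a cell, a minimum of 20 UMIs, a minimum of 200 genes in place of the deviation filter, mitochondrial UMIs under 5%, Leiden clusters, cells free of cancer-cell markers and the sum without Gapdh. Added after the data were seen were cells of equal weight without a draw, cancer cells free of macrophage markers, and the same settings for single members and for levels relative to cancer cells. Cells called free of markers had no UMI of them among 2000, which does not show them free of other cells' RNA. Promoters came from RefSeq on GRCm38.p6. Software was Python 3.11.15 with numpy 2.4.6, scipy 1.17.1, pandas 2.3.3, scikit-learn 1.9.0, igraph 0.11.9, leidenalg 0.10.2 and matplotlib 3.10.9.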

Additional observations from a re-analysis of the deposited data

Results flagged for a closer look

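The summed members moved in opposite directions between the libraries in different classes, a difference between classes that was not tested. At 2000 UMIs a cell the log2 ratio, sGC ∆PC over sGC Ctr, was 0.158 in cancer cells and 0.209 in T cells, and -0.022 in macrophages, -0.045 in monocytes and -0.066 in fibroblasts, each with a counting interval that leaves out 0. With all UMIs the ratios were 0.108, 0.031, 0.035, -0.032 and 0.059, so the macrophages and fibroblasts had the other sign there.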

How the results depend on the processing

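With 1 library per condition no replicate could be left out. No paired analysis was possible because each group holds 1 library. Of the values that answer a comparison, 69 stayed within the counting interval of the reported value, or within 1.5 times of a reported count, 40 did not, and 7 turned where the reported interval left out 0. A count that stayed need not hold the same members. In fibroblasts it was 3 with all UMIs too, although Ndrg1, Ero1l and P4ha2 were then within 1.5-fold. For cancer cells the setting free of cancer-cell markers kept every cell, so its value could not differ. Where that interval spanned 0, the log2 ratio of the summed members also took the other sign in 4 of 7 alternatives in dendritic cells (-0.102 to -0.0724) and in granulocytes (0.0004 to 0.0945), and in 3 of 7 in ECs (-0.0356 to -0.0157) and in pericytes (-0.0890 to -0.0321), so no direction is given for them. The log2 ratio of the summed members turned in macrophages to 0.035 with all UMIs, 0.0049 without the median-deviation filter and 0.185 with Leiden clusters, in monocytes to 0.018 with mitochondrial UMIs under 5% and 0.028 in cells free of cancer-cell markers, and in fibroblasts to 0.059 with all UMIs and 0.022 with mitochondrial UMIs under 5%; the cause was not tested. It moved in cancer cells to 0.108 with all UMIs, 0.124 with mitochondrial UMIs under 5% and 0.135 without Gapdh, in macrophages to -0.052 at 1000 UMIs, -0.0025 with mitochondrial UMIs under 5% and -0.0043 without Gapdh, in granulocytes to 0.067 with all UMIs and 0.095 at 1000 UMIs, and in T cells to 0.031 with all UMIs, 0.460 at 1000 UMIs and 0.359 with mitochondrial UMIs under 5%. Members past 1.5-fold with all UMIs were 1 in cancer cells, 2 in macrophages, 1 in monocytes, 3 in granulocytes, 1 in T cells and 2 in ECs. With a minimum of 20 UMIs they were 2 in dendritic cells, 2 in granulocytes, 2 in T cells and 3 in ECs. With cells of equal weight they were 1 in cancer cells, 2 in macrophages, 0 in dendritic cells, granulocytes and pericytes, and 1 in fibroblasts. The members with enough UMIs and the share of all genes past 1.5-fold were not counted under these settings. The counts therefore show only how the calls depend on the setting. The hypoxia-response members as a percentage of the cancer-cell level in fibroblasts of sGC Ctr and sGC ∆PC were 261% and 260% with mitochondrial UMIs under 5%, 312% and 243% at 2000 UMIs and 307% and 236% in cells free of cancer-cell markers. In granulocytes they were 265% and 254% with mitochondrial UMIs under 5%, and in sGC Ctr 314% at 2000 UMIs and 336% in cells free of cancer-cell markers. The top group of cancer cells held 1.79 and 1.45 times the enzymes of the bottom group at 2000 UMIs, where 5 enzymes were past 1.5-fold in sGC ∆PC. Leiden clusters gave values only for cancer cells and macrophages. Depth limits the small classes most: pericytes, T cells and dendritic cells held at most 50 cells a library at 2000 UMIs, and there the random draw alone changes ratios.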
